A study of Mus musculus with 3 samples.

Results

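The genes described here are 8 genes of lipoprotein uptake and cholesterol balance, namely Vldlr, Lrp1 and Scarb1 (lipoprotein receptors), Sqle (sterol synthesis), Srebf2 and Insig1 (sterol sensing), and Abca1 and Abcg1 (cholesterol efflux). They were selected by symbol, and all 8 were found among the 17583 genes of the deposited table. The values are levels of ribosome-associated RNA in hearts of EC-RiboTag mice (genotype Cdh5-CreERT2;Rpl22tm1.1Psam). In these mice tamoxifen activates a Cre recombinase under control of Cdh5, the gene of the endothelial protein VE-cadherin, and Cre switches the ribosomal protein gene Rpl22 to a version with a hemagglutinin tag, so that tagged ribosomes can be immunoprecipitated from heart homogenate. The 3 libraries are biological replicates of a single condition, called mouse 1, 2 and 3 after their labels. All 3 hearts were perfused with a solution containing cycloheximide before freezing, as the study's methods state. According to the sample labels, coronary ligation preceded collection of the hearts by 7 days. No label explains the abbreviation Rz in the titles. Elsewhere the study abbreviates the remote zone of infarcted hearts as RZ, also for EC-RiboTag mice, while its account of the sequenced libraries names neither an infarct nor a zone. The labels state no age and no sex for the mice. No input and no control library was analysed here, so a value is a level within the immunoprecipitate, no test between conditions exists, and fewer tagged cells cannot be told apart from less RNA per cell.

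Cells obtain cholesterol by taking up lipoproteins through receptors of the LDL receptor family and through scavenger receptors, or by synthesis from acetyl-CoA through the mevalonate pathway. When sterols in the endoplasmic reticulum fall, SCAP carries the SREBP2 precursor, the product of Srebf2, to the Golgi apparatus, where proteases release a transcription factor that activates genes of sterol synthesis and LDL uptake. INSIG proteins retain SCAP when sterols are abundant. Oxysterols activate LXR nuclear receptors, whose targets include the efflux transporters ABCA1 and ABCG1. In the heart, endothelial cells separate the blood from the muscle, carry lipoprotein lipase on their luminal surface and take up and transfer lipoprotein lipids.

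The unit of the values is the normalized count, a read count divided by a scaling factor per library and rounded to a whole number by the authors. The libraries correspond to an estimated 6753000 to 7564000 reads. The 12 endothelial marker genes had a median of 710.9 normalized counts per 1000 bases of transcript, at or above 99.2% of the 14395 genes with a mean normalized count of at least 10 and a known length. Markers of other cells were present as well. The median of the 10 cardiomyocyte markers was at or above 97.5% of these genes, that of 8 fibroblast markers 50.0%, of 8 mural cell markers 27.5%, and of 8 leukocyte and macrophage markers 21.6%. None of these markers had a mean of 0, but neither had any other gene of the table. Duplicate reads had been removed, which limits short, abundant transcripts most. These places therefore do not measure the share of RNA from each cell type. The part of cells other than endothelial cells in the levels given below was not tested.

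Per length, Scarb1 had by far the highest level of the 8 genes, and Vldlr, Lrp1, Abca1 and Sqle the lowest. To compare genes, normalized counts were divided by the length of the Ensembl canonical transcript, since a longer RNA yields more reads. Scarb1 reached 557.8 ± 20.3 normalized counts per 1000 bases (SD, n = 3 mice). Srebf2 followed with 228.1 ± 6.8, Insig1 with 192.2 ± 19.7 and Abcg1 with 146.3 ± 18.8. These were above the median of 106.5 over the 14395 genes. Vldlr had 77.1 ± 3.6, Lrp1 70.4 ± 21.3, Abca1 64.7 ± 11.9 and Sqle 59.6 ± 15.3 per 1000 bases, all below that median. Each of the first 4 steps in this order was larger than the larger SD of its genes and was seen in each of the 3 mice. The last 3 steps, among Vldlr, Lrp1, Abca1 and Sqle, were smaller than the spread between mice. The median of the 8 genes was 111.7 per 1000 bases, and 2 of them (Scarb1 and Srebf2) were among the highest 25% of the genes tested, a place that Srebf2 lost without mouse 3. Scarb1 kept the first place with the summed length of all annotated exons and with the coding length, although its distance to Srebf2 shrank to 136.9 against 124.0 per 1000 bases of annotated exons. With the coding length Insig1 took the second place with 677.4 per 1000 bases and Srebf2 the fourth with 341.6. No window of 72 bases, the read length, of the 8 canonical transcripts had an exact copy elsewhere in the genome, and none of their bases lay in an exon of another gene on the same strand.

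**Figure D1:**
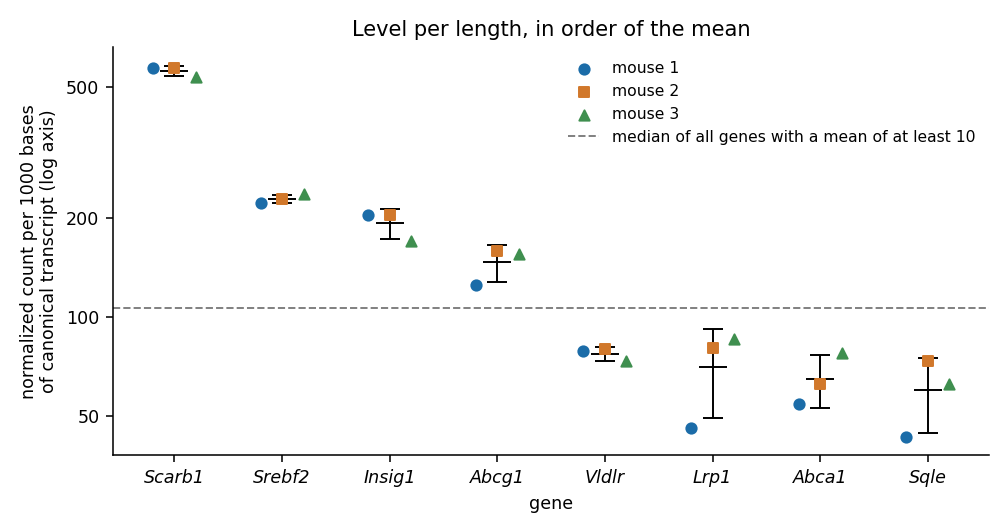
Normalized counts per 1000 bases of canonical transcript (log axis) for the 8 genes in the order of their means; symbols are the 3 mice, horizontal ticks with error bars are mean and SD, and the dashed line is the median of 106.5 over all genes with a mean of at least 10. Scarb1 stands apart at the top with 557.8, and Vldlr, Lrp1, Abca1 and Sqle overlap below the dashed line.

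Among the receptors, Scarb1 and Vldlr were alike in the 3 mice, and Lrp1 was not. Scarb1 encodes SR-BI, a receptor for high-density lipoprotein that moves cholesterol esters into cells and is also involved in LDL transport across endothelium. The gene (ENSMUSG00000037936, minus strand of chromosome 5 of GRCm39, 125354151 to 125418158) was measured at 1449, 1443 and 1357 normalized counts in the 3 mice, in the order of their numbers, which is kept throughout, a mean of 1416 ± 51 (SD, n = 3). Mouse 3 was slightly lower than the other mice.

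Vldlr encodes the very low-density lipoprotein receptor, which binds triglyceride-rich lipoproteins containing apolipoprotein E and is known to be expressed in heart. The gene (ENSMUSG00000024924, plus strand of chromosome 19, 27193884 to 27231631) had 645, 658 and 601 normalized counts, a mean of 634.7 ± 29.9 (SD, n = 3). All 3 mice lay close together.

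Lrp1 encodes a giant endocytic receptor with many ligands, among them apolipoprotein E, proteases and protease inhibitors, and APP. The gene (ENSMUSG00000040249, minus strand of chromosome 10, 127374030 to 127457017) has a canonical transcript of 14906 bases in 89 exons. The normalized counts were 685, 1193 and 1270, a mean of 1049 ± 318 (SD, n = 3). Mouse 1 was far below the other mice, at a log2 difference of -0.85 from their mean. A part of this moved with transcript length. The 160 genes within 25% of the length of Lrp1 and with a mean of at least 200 had a median log2 difference of -0.23 in mouse 1, which leaves -0.61 for Lrp1 (a comparison chosen after seeing the data).

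The 19 lipoprotein receptors on the wider list spread over a far larger range than these 3 members. Of the 18 with a mean of at least 10, 4 were among the highest 25% per base, namely Scarb1, Lrp5, Scarb2 and Lrp10, and the median was 73.7 normalized counts per 1000 bases. Lrp5, a Wnt co-receptor, had 432.1 ± 38.5 and Scarb2, a lysosomal receptor, 312.3 ± 11.8 per 1000 bases (SD, n = 3). Lrp10 had 264.3 ± 2.6, and its normalized counts of 1371, 1349 and 1374 were nearly equal. Stab1, which encodes the scavenger receptor stabilin-1, had 1411, 1513 and 1924 normalized counts, a mean of 1616 ± 272. Lrp8, the apolipoprotein E receptor that binds reelin, was low with 31, 81 and 53 normalized counts. The scavenger receptors Olr1, Msr1 and Stab2 and the giant receptors Lrp2 and Lrp1b had means between 4.7 and 17.7 normalized counts, so that few reads support their values.

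The partners of these receptors and the genes of lipoprotein handling were high as a group, with a median of 349.2 normalized counts per 1000 bases and 8 of 12 genes among the highest 25%. Gpihbp1, which encodes the endothelial protein that carries lipoprotein lipase to the capillary lumen, reached 1637 ± 103 per 1000 bases (SD, n = 3), with normalized counts of 1447, 1353 and 1276. These values exceed 1 read per base of the canonical transcript, which has 830 bases, although duplicate reads were removed. All annotated exons of Gpihbp1 together have 2558 bases, so its level per length depends on the length used. Lpl, the lipase gene itself, had 600.3 ± 43.8 and Pltp, which encodes a phospholipid transfer protein, 556.9 ± 54.8 per 1000 bases. Apoe, which encodes the ligand of several of the receptors, had 408.1 ± 36.2. The chaperone gene Lrpap1 of the LDL receptor family had 341.3 ± 16.1, the sorting adaptor gene Snx17 429.3 ± 17.4 and the endocytic adaptor gene Dab2 285.6 ± 6.7 per 1000 bases. Mylip, an LXR target whose product IDOL promotes degradation of lipoprotein receptors, among them VLDLR, had 1323, 869 and 1093 normalized counts, lowest in mouse 2. The other 2 genes of this list of 14 were not analysed here.

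**Figure D2:**
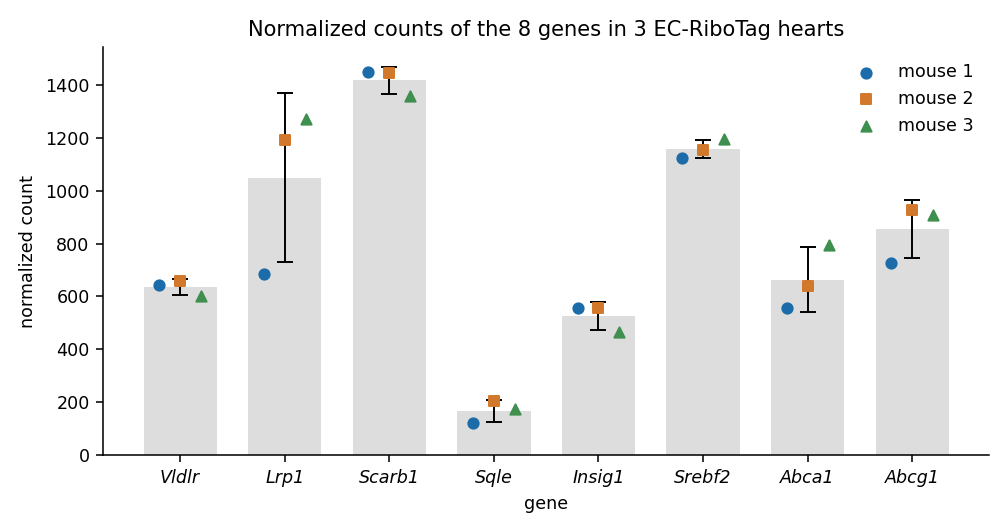
Normalized counts of the 8 genes; bars are means over the 3 mice with SD as error bars, and symbols are single mice. Scarb1, Vldlr and Srebf2 vary little, whereas Lrp1 in mouse 1 (685) lies far below mice 2 (1193) and 3 (1270), and Sqle, Abca1 and Abcg1 are also lowest in mouse 1.

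In sterol synthesis, Sqle was low and varied between mice, and many enzymes of the pathway were highest in mouse 2. Sqle encodes squalene monooxygenase, which makes the first oxygenated sterol precursor and is a rate-limiting enzyme of the pathway. The gene (ENSMUSG00000022351, plus strand of chromosome 15, 59186926 to 59203041) had 121, 206 and 175 normalized counts, a mean of 167.3 ± 43.0 (SD, n = 3). Mouse 1 was lowest and mouse 2 highest. About 167 reads per mouse stand behind these values, which corresponds to a coefficient of variation of 7.8% from counting, whereas 25.7% was observed.

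The 21 genes on the list of sterol synthesis enzymes all had values, with a median of 74.8 normalized counts per 1000 bases. Only 2 of them, Pmvk (267.4 ± 28.7) and Ebp (250.5 ± 9.2 per 1000 bases), were among the highest 25%. Hmgcs1, which encodes the HMG-CoA synthase of the cytosol, had 180.8 ± 12.9 per 1000 bases (SD, n = 3). Lss, whose product closes the sterol rings, Idi1 and Tm7sf2 were lowest, with 10.4 to 21.2 per 1000 bases.

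Of the 21 enzymes, 11 (52.4%) were highest in mouse 2, against 31.2% of all 14441 genes with a mean of at least 10. Among these were Acat2, Hmgcs1, Mvd, Fdps, Fdft1, Sqle, Cyp51, Msmo1 and Dhcr7. Of the 13 enzymes with a mean of at least 200, 7 were highest in mouse 2, against 31.9% of the 9358 genes of that level. In 10 of the 21 (47.6%) mouse 2 was at least 1.1-fold above the next mouse, against 13.1% of all genes, a margin chosen after seeing the data. Cyp51, which encodes lanosterol demethylase, had 195, 308 and 209 normalized counts. Fdft1, which encodes squalene synthase, had 238, 294 and 231. The pattern did not extend to every enzyme. Ggps1 (882, 834 and 856), Ebp (455, 429 and 426) and Sc5d (430, 407 and 410) were nearly flat, and Lss was lowest in mouse 2 with 67, 51 and 82. The median log2 difference of mouse 2 from the other mice was 0.18 over the 21 enzymes, 0.57 over 12 proliferation genes, 0.24 over 8 leukocyte and macrophage markers, 0.18 over 8 fibroblast markers and 0.00 over all genes. The same median was -0.03 over 8 mural cell markers, 0.005 over 12 endothelial markers and -0.002 over 10 cardiomyocyte markers. The fibroblast markers were split, as 4 were highest in mouse 2 and 4 in mouse 3. Among the latter, Dcn and Lum were lowest in mouse 2. Of the 8 leukocyte and macrophage markers, 3 were highest in mouse 2 and 4 in mouse 3, and Cd14 was lowest in mouse 2. Of the proliferation genes, a list added after values were seen, 11 of 12 were also highest in mouse 2 and all 12 were lowest in mouse 1. The part of proliferating cells, leukocytes and fibroblasts in the pattern of the sterol genes was not tested.

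**Figure D3:**
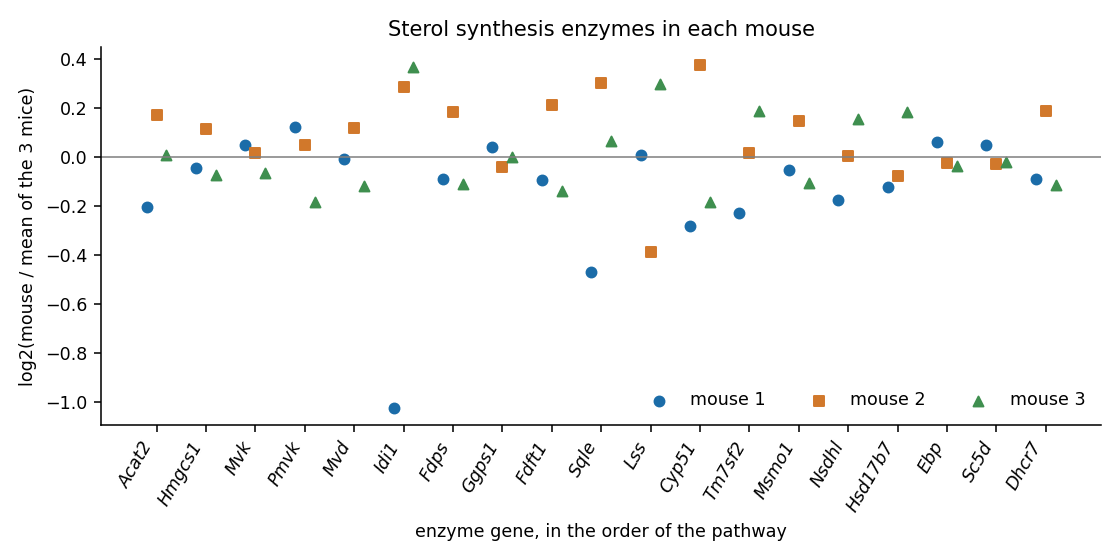
log2 of the value in each mouse over the mean of the 3 mice for 19 of the 21 sterol synthesis enzymes, in the order of the pathway. Squares (mouse 2) are on top for 9 of the 19 genes, including Fdft1, Sqle and Cyp51, and mouse 1 is lowest for 7.

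Promoter sequences were compared because these enzymes are known targets of SREBP2, which binds together with NF-Y, a factor of CCAAT boxes. The window ran from 250 bases before to 50 bases after the start of the canonical transcript in GRCm39, on both strands. The motif CCAAT was present in 17 of the 21 enzyme promoters (81.0%) and in 5 of the 8 members (62.5%), against 39.0% of 14230 protein-coding genes. A sterol regulatory element written as TCACNCCAC occurred in 1.27% of all promoters, in that of Hmgcs1 among the enzymes and in none of the 8 members. An LXR element, searched as a pair of AGGTCA in the same direction with 4 bases between them, was found in no promoter of the table. Variants of these letters and sites outside the window were not searched, so a missing match does not show that a gene lacks such an element. The matches of the members are printed in the direction of the gene with the motif in capitals, where ATTGG is CCAAT on the opposite strand. Sqle carries a pair of them, and the element of Hmgcs1 is shown beside them.
Sqle, chr15:59186754-59186780: cgccgcccgccATTGGacaaacgctct
Sqle, chr15:59186808-59186834: tgcgcgctctcATTGGttcggacggcg
Srebf2, chr15:82031324-82031350: ttcgcgcgccgATTGGctaatgcaagc
Insig1, chr5:28276183-28276209: gccctcctcccATTGGctccggcggcc
Vldlr, chr19:27194331-27194357: aggcacccgggATTGGaggtgaggacg
Abcg1, chr17:31276626-31276652: ctccgcccggcCCAATcgtgggcaggg
Hmgcs1 (sterol regulatory element), chr13:120151739-120151769: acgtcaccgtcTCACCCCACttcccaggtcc
All are on the plus strand. These letters describe the windows, and no binding was measured.

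In sterol sensing, Srebf2 was the steadiest of the 8 genes. Srebf2 (ENSMUSG00000022463, plus strand of chromosome 15, 82031382 to 82089580) had normalized counts of 1125, 1155 and 1194, a mean of 1158 ± 35 (SD, n = 3). Its coefficient of variation between mice, 3.0%, equalled the 2.9% that counting alone gives. Insig1 encodes a protein that retains SCAP and is itself a target of SREBP2. The gene (ENSMUSG00000045294, plus strand of chromosome 5, 28276361 to 28283660) had 558, 557 and 464 normalized counts, a mean of 526.3 ± 54.0 (SD, n = 3), with mouse 3 below the other mice.

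The 15 genes of sterol sensing and control all had a mean of at least 200, with a median of 228.1 normalized counts per 1000 bases, and 8 were among the highest 25%. The nuclear receptor genes Nr1h2 (LXR beta), Rxrb and Rxra had 432.5 ± 45.2, 369.5 ± 37.8 and 334.6 ± 13.8 per 1000 bases (SD, n = 3). Nr1h3, which encodes LXR alpha, was lower with 116.8 ± 20.8. Rnf145, which encodes a ubiquitin ligase, had 314.7 ± 27.3. The protease genes Mbtps1 and Mbtps2, whose products release SREBPs, had 299.9 ± 23.0 and 173.0 ± 4.6. None of the 15 genes had a coefficient of variation over 20%, against 8.00% of the genes at a mean of 200 or more, and none was highest in mouse 2, against 31.9%.

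In cholesterol efflux, Abcg1 had a higher level per length than Abca1, and both were lowest in mouse 1. Abca1 encodes the transporter that loads cholesterol and phospholipid onto apolipoprotein A-I. The gene (ENSMUSG00000015243, minus strand of chromosome 4, 53030787 to 53159895) had 555, 641 and 796 normalized counts, a mean of 664.0 ± 122.1 (SD, n = 3), highest in mouse 3. Abcg1 encodes a transporter that promotes efflux to high-density lipoprotein. The gene (ENSMUSG00000024030, plus strand of chromosome 17, 31276649 to 31336962) had 728, 927 and 907, a mean of 854.0 ± 109.6 (SD, n = 3). Mice 2 and 3 were close together.

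The wider list of efflux, intracellular transport and storage had 17 genes, of which 16 had a mean of at least 10 and 3 (Lipa, Npc2 and Stard4) were among the highest 25% per base. Lipa, the lysosomal lipase that frees cholesterol from lipoprotein esters, had 316.3 ± 6.2 per 1000 bases (SD, n = 3), and Npc2 and Npc1, whose products export cholesterol from lysosomes, had 285.2 ± 31.4 and 66.4 ± 8.5. Stard4, a sterol carrier gene and a known SREBP2 target, was flat with 1282, 1323 and 1329 normalized counts. Soat1, which encodes the enzyme that esterifies cholesterol for storage, had 315, 513 and 450. Ch25h, which makes 25-hydroxycholesterol, had 141, 369 and 225. Both were lowest in mouse 1 and highest in mouse 2, as Sqle was. Abcg4 and Soat2 had means of 2.3 and 10.7 normalized counts.

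Scarb1, Srebf2 and Vldlr varied least between mice, and Lrp1 and Sqle most. Of the 7 members with a mean of at least 200, Lrp1 had a coefficient of variation over 20% (30.3%), against 8.00% of the 9358 genes with such a mean. Sqle, whose mean was below 200, had 25.7%. Of all genes with a mean of at least 10, 24.2% had more than 20%. That share covers all levels from 10 upward and not the level of Sqle alone. With a minimum mean of 100, Lrp1 and Sqle were 2 of 8 members over 20%, against 11.6% of all genes. With a limit of 15%, Lrp1 and Abca1 were 2 of 7 members, against 14.9%. Abca1 had 18.4%, Abcg1 12.8%, Insig1 10.3%, Vldlr 4.7%, Scarb1 3.6% and Srebf2 3.0%. The median of all genes from a mean of 200 upward was 7.4%. The count of 1 member rested on single libraries, since without mouse 1 no member exceeded 20%, and without mouse 2 both Lrp1 and Abca1 did.

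**Figure D4:**
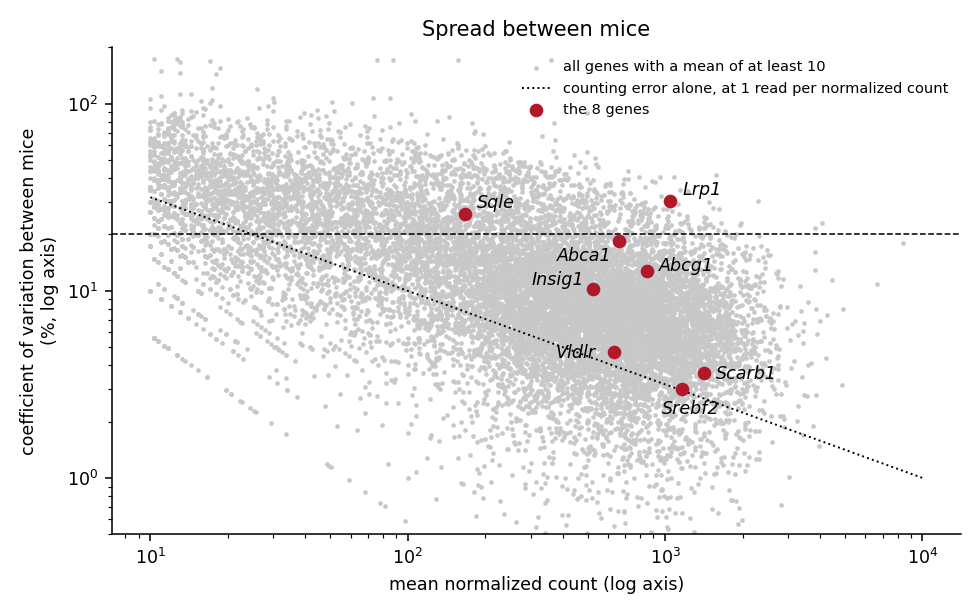
Coefficient of variation between the 3 mice against mean normalized count (both log axes) for all genes with a mean of at least 10 (grey, those below 0.5% lie off the axis) and the 8 genes (red); the dashed line is 20%, and the dotted line is the error of counting alone. Lrp1 (30.3%) and Sqle (25.7%) lie above the dashed line, and Srebf2 (3.0%) lies on the dotted line.

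Mouse 1 was lowest for 5 of the 8 genes (62.5%), namely Lrp1, Sqle, Srebf2, Abca1 and Abcg1, against 33.9% of the 14441 genes above the minimum of 10. The 4 of them with a mean of at least 200 stand against 31.8% of the genes of that level. Mouse 2 was highest for 3 members (Vldlr, Sqle and Abcg1), near the 31.2% of all genes. On the wider lists, mouse 1 was lowest for 10 of 18 receptors (55.6%) and 8 of 16 efflux genes (50.0%). It was highest for 8 of 12 receptor partners (66.7%) and 9 of 15 sensing genes, against 35.9% of all genes. At a mean of at least 200, the share of genes lowest in mouse 1 rose with transcript length. It was 14.8% below 2000 bases and 71.2% from 12000 bases upward. The shares over all genes set beside these counts were not matched for length. In Lrp1, Sqle, Abca1 and Abcg1 (50.0%) mouse 1 lay at least 1.1-fold below the next mouse, against 20.1% of all genes. The log2 differences of mouse 1 from the mean of the other mice were -0.85 for Lrp1, -0.65 for Sqle, -0.37 for Abca1 and -0.33 for Abcg1. After subtraction of the median of genes of like length they were -0.61, -0.68, -0.26 and -0.31. Other genes moved with mouse 1. The 8 leukocyte and macrophage markers summed to 723, 924 and 931 normalized counts in mice 1, 2 and 3, with 6 of 8 lowest in mouse 1. The 8 fibroblast markers summed to 3047, 3970 and 4186, the 8 mural markers to 1372, 1917 and 2104, and the 12 proliferation genes to 5383, 10356 and 9224. The 12 endothelial markers summed to 28993, 27946 and 29093, and the 10 cardiomyocyte markers to 20679, 21339 and 24237. Ttn (7379, 7743 and 10190) and Ryr2 (3280, 3667 and 4486) carry much of the cardiomyocyte sum, whereas 6 of these 10 markers were highest in mouse 1. Vwf (1898, 1886 and 3098) raises the endothelial sum of mouse 3, whereas 6 of the 12 endothelial markers were lowest in that mouse. Mouse 1 also had 4 normalized counts of Xist and 1080 of the Y-linked gene Ddx3y, whereas mice 2 and 3 had 618 and 869 of Xist and 3 and 1 of Ddx3y. These are the levels of a male for mouse 1 and of females for mice 2 and 3. With 1 male among the 3 mice, a difference by sex cannot be told apart from one between single mice. The part of these differences in the values of Lrp1, Sqle, Abca1 and Abcg1 was not tested.

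Pairs of genes with related roles were compared by the log2 ratio of their levels per base within each mouse. The smallest two-sided p of an exact sign-flip permutation test with 3 mice is 0.25, so a threshold of 0.05 was out of reach, and p-values adjusted by Benjamini-Hochberg over the 8 pairs compared, of which 6 are reported, were 0.33 or 1. Scarb1 exceeded Vldlr in each of the 3 mice by 2.85 ± 0.02 on the log2 scale (SD, n = 3, p = 0.25 by the exact sign-flip test), or 7.2-fold. Srebf2 exceeded Srebf1, the gene of the family member that mainly controls fatty acid synthesis, by 1.04 ± 0.02 (exact sign-flip test, p = 0.25), or 2.1-fold. Insig1 was below Insig2, whose product also retains SCAP, by a log2 ratio of -0.68 ± 0.10, and Abca1 was below Abcg1 by -1.18 ± 0.17 (exact sign-flip test, p = 0.25 each). These 4 ratios kept their direction in each mouse and with each way to set the length. Their size depended on the length, and that of Scarb1 to Vldlr was 1.13 per base of all annotated exons.

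With the canonical transcript, the other 2 ratios were small. Srebf2 and Scap, the gene of its escort protein, differed by 0.16 ± 0.12 (SD, n = 3, p = 0.25 by the exact sign-flip test), with the same direction in each mouse. Lrp1 and Vldlr differed by -0.18 ± 0.52, with -0.77, 0.00 and 0.22 in mice 1, 2 and 3, and by 0.11 without mouse 1 (exact sign-flip test, p = 1 over 3 mice). Both ratios were larger with other lengths, namely 0.87 for Srebf2 to Scap per base of all annotated exons, and -1.75 for Lrp1 to Vldlr per base of coding sequence.

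**Figure D5:**
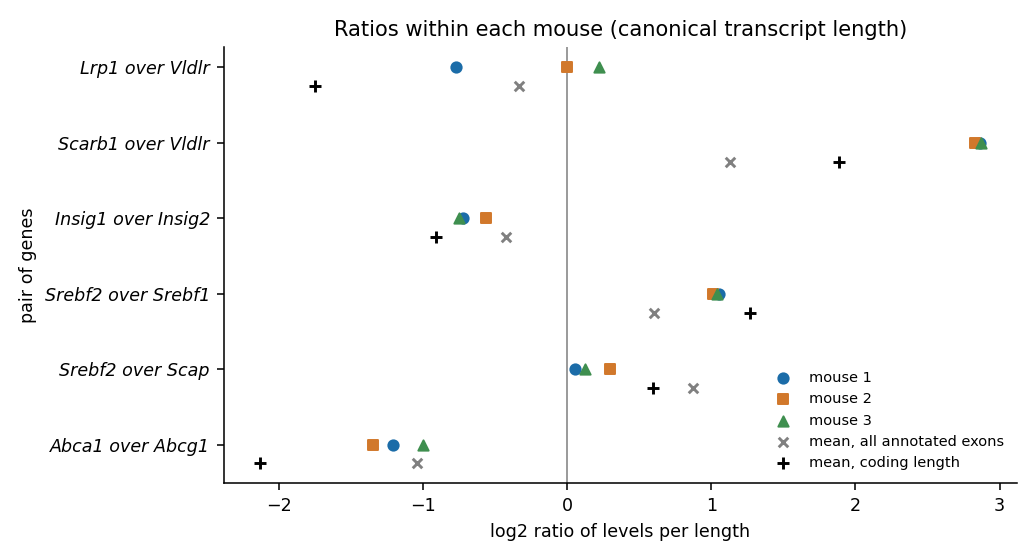
log2 ratio of levels per base of canonical transcript for 6 pairs of genes; coloured symbols are the 3 mice, and grey crosses and black plus signs are the means with all annotated exons and with the coding length. The ratios of Scarb1 to Vldlr, Srebf2 to Srebf1, Insig1 to Insig2 and Abca1 to Abcg1 lie on the same side of 0 in each mouse and with each length, and that of Lrp1 to Vldlr crosses 0.

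Among the genes of the pathway lists, the gene nearest to a member was the one with the smallest maximum difference in log2 level per base over the 3 mice. It was Mvk for Vldlr, with a difference of at most 0.07, and Osbp for Srebf2, with at most 0.09. Pltp was nearest to Scarb1 (0.18), Npc1 to Abca1 (0.20), Soat1 to Sqle (0.26) and Lrp6 to Abcg1 (0.34). Soat1 shares with Sqle the low value in mouse 1. Likeness here is of level only, over 3 mice of a single condition.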

How the data were processed

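Ribosome-associated RNA of 3 EC-RiboTag hearts was sequenced from a single end (72 bases). According to their methods, the authors used Trimmomatic 0.39 for trimming and STAR 2.7.11a for alignment to mm39, removed duplicates (Picard 3.1.1) and multi-mapping, ribosomal and mitochondrial reads, counted reads over exons on the correct strand with featureCounts 2.0.4, leaving out those that overlap several genes, and normalized with DESeq2 1.36.0. The deposited values are a score, namely normalized counts rounded to whole numbers, and not raw counts, so no count model was fitted. Removal of duplicates limits short, abundant transcripts most. The worth of 1 read per library, estimated from gaps and pile-ups that rounding produces among values of 5 to 120, was 0.977, 1.06 and 0.961 normalized counts; the estimate and the rule on the coefficient of variation were tested on simulated data. Counting errors derived from it cover counting only. The sign-flip test asks whether a log2 ratio differs from 0 over these 3 mice, and its p-values do not measure the spread between them.

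Lengths, exon overlaps and promoters came from GENCODE vM39 and the GRCm39 genome, which matched 17475 of 17583 identifiers. Ratios used a pseudocount of 0.5. Copies of read-length windows were searched with BLAST 2.17.0. Python 3.11.15, numpy 2.4.6 and pandas 2.3.3 were used. The members, gene lists, pairs and motifs were chosen with earlier results of these data known. Genes named are the members, the genes of the lists where a list is described, and the list gene nearest to a member. Some genes of the lists and pairs are included in counts and medians but not reported here by name. No test compares conditions. Alternatives were other scalings, lengths, summaries, minimum means, thresholds and pseudocounts, and leaving out each mouse.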

Additional observations from a re-analysis of the deposited data

How the results depend on the processing

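The libraries form a single group, so no scaling or filter bears on a contrast. No paired analysis was possible because there is only 1 group. The median of the 8 members, 111.7 normalized counts per 1000 bases, became 85.1 with all annotated exons and 296.0 with the coding length, since both change the divisor. The log2 ratio of Lrp1 to Vldlr turned from -0.18 to 0.67 without division by length, and lay between -0.38 and 0.11 with a mouse left out, positive without mouse 1. The number of members with a coefficient of variation over 20% was 1, and it was 2 with a mean of at least 100, with no minimum mean, with a threshold of 15%, and beyond counting error at a mean of at least 10 (the last chosen after seeing the data). It was between 0 and 2 with a mouse left out. Between 1 and 2 members were among the highest 25% per base with a mouse left out. Of the efflux list, 5 genes in place of 3 were among them with all annotated exons and with no minimum mean. Of the members, 3 were highest in mouse 2, and 4 with scaling by trimmed means. Only 1 was highest there by at least 1.1-fold, a margin chosen after seeing the data. Scaling by trimmed means or to equal totals moved no mean of a member by more than its SD. Genes with few reads, such as Lrp1b and Abcg4, are limited by depth.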
